A study of Mus musculus with 4 samples.

Results

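The 10 genes described here encode transcription factors that mark progenitor domains along the dorsoventral axis of the neural tube: the homeodomain factors Nkx2-2, Nkx6-1, Nkx6-2, Irx3, Irx5, Dbx1 and Dbx2, the paired-box factors Pax6 and Pax7, and the basic helix-loop-helix factor Olig2. They were taken by name from 21822 measured genes, and all 10 were found. RNA came from aggregates of iMN-ESCs, a line of mouse embryonic stem cells of C57BL/6 background in which doxycycline (Dox) induces a fusion of Isl1 and Lhx3, LIM-homeodomain factors that act together in motor neurons. All aggregates spent 2 days in suspension in stem cell medium with LIF and 2 days in 0.5 µM all-trans retinoic acid (RA) alone. The 2 libraries of the no Dox group (controls) then stayed in RA without Dox for another 2 to 3 days, and the 2 libraries of the Dox group received 2 µg/mL Dox with RA over that time. No group received Dox without the fusion, so effects of Dox and of the fusion cannot be told apart, and the labels name no Hedgehog agonist for any group.

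In the developing spinal cord, Sonic hedgehog from the notochord and floor plate and opposing dorsal signals divide dividing progenitors into stripes, each with its own set of these factors. From ventral to dorsal, p3 progenitors carry Nkx2-2, pMN progenitors, which make motor neurons, carry Olig2, and p2, p1 and p0 progenitors, which make interneurons, carry Irx3 and Pax6 with differing sets of Nkx6 and Dbx genes. Pax7 marks dorsal progenitors. Many of these factors are repressors, and neighbouring pairs such as Olig2 and Irx3, Nkx2-2 and Pax6, or Nkx6 and Dbx factors repress each other, which sharpens the borders.

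Library totals ran from 24020832 to 53903936 counts over gene parts. The induced factors followed the labels, with Lhx3 at 0.404 and 0.286 CPM (counts per 1000000) without Dox against 125 and 108 CPM with Dox. The design text calls the replicates biological duplicates, and the spread within each group exceeded that of counting (chi-square over degrees of freedom of 36.5 without and 32.6 with Dox). All fold changes are Dox over no Dox, on the log2 scale, from edgeR's quasi-likelihood test fitted on 14283 genes, with p-values adjusted over all of them by the Benjamini-Hochberg method at a threshold of 0.05. Of the 10 members, 9 had enough counts to be tested, and Nkx2-2 did not.

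Among the members without Dox, the intermediate factors Pax6, Irx3, Dbx1 and Irx5 stood at high RNA levels. The ventral factors Olig2, Nkx6-1 and Nkx2-2 stood at low levels. Dbx2, also an intermediate factor, was not among the high ones. To compare genes, levels were divided by exon length (CPM per kb). Pax6 was the highest at a mean of 49.3 CPM per kb, followed by Irx3 at 23.7, Dbx1 at 22.3 and Irx5 at 12.1 CPM per kb. Pax7, Dbx2 and Nkx6-2 came next at 2.72, 1.86 and 1.64 CPM per kb. The ventral factors were lowest, with Olig2 at 0.606, Nkx6-1 at 0.363 and Nkx2-2 at 0.0664 CPM per kb. Within this order, Irx3 overlapped Dbx1 across the replicate libraries, and Pax7, Dbx2 and Nkx6-2 overlapped one another, so those neighbours are not separated beyond replicate spread. Each other neighbouring pair was separated in the 2 libraries. A read that crosses several gene parts may be counted in each, which raises genes with many exons such as Pax6 (13 parts) relative to Olig2 (2 parts). These are RNA levels of whole aggregates, in which fewer cells of a type and less RNA per cell cannot be told apart, and which factors share a cell is not measured.

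**Figure D1:**
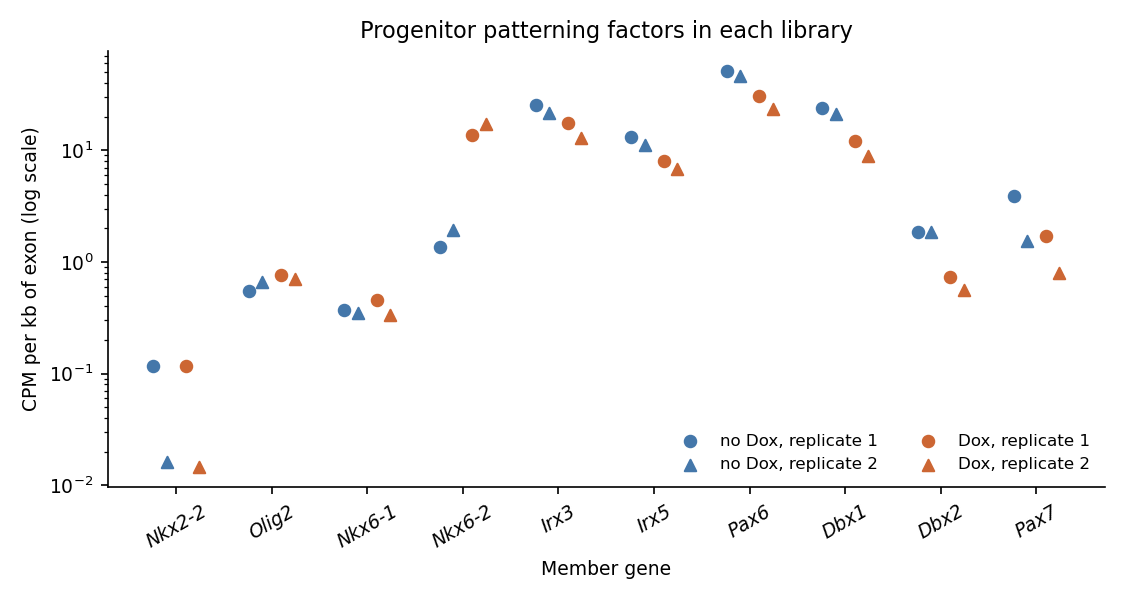
RNA level of each member in each of the 4 libraries, in CPM per kb of exon on a log axis, with genes ordered from ventral to dorsal domains and circles and triangles for replicates 1 and 2. Nkx6-2 stood at 1.35 and 1.93 CPM per kb without Dox and at 13.6 and 17.1 with Dox, while Irx3, Irx5, Pax6, Dbx1 and Dbx2 were lower in both Dox libraries and Olig2, Nkx6-1 and Nkx2-2 stayed under 1 CPM per kb throughout.

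Nkx6-2 was the member that rose with Dox. Its protein is a homeodomain repressor of ventral and p1 progenitors, closely related to Nkx6-1, and together they permit motor neuron formation by keeping Dbx genes out of ventral cells. Nkx6-2 stood at 2.57 and 3.67 CPM in no Dox replicates 1 and 2 and at 25.9 and 32.6 CPM in Dox replicates 1 and 2. Both Dox libraries lay far above both libraries without Dox. The mean moved from 3.12 ± 0.78 to 29.2 ± 4.73 CPM (SD, n = 2 each), a log2 fold change of 3.23 (SE 0.24), or 9.39-fold with a 95% interval of 6.24 to 14.1 (edgeR, adjusted p = 0.00389). Over all genes tested 1.23% were called higher, and Nkx6-2 ranked 39th by p-value and 82nd by fold change among the 14283. Leaving out any library kept the call, with log2 fold changes from 3.00 to 3.51.

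The rise was seen along the gene. Nkx6-2 was counted in 5 parts, numbered along the genome from the 3′ end of this minus-strand gene. Part 1 had no count in any library. The other parts were 16.8-fold (95% counting interval 8.39 to 39.4), 7.98-fold (6.19 to 10.4), 12.5-fold (8.22 to 19.9) and 9.42-fold (7.33 to 12.3) higher with Dox, from summed counts scaled for library size. These intervals cover counting error only. Exons of Nkx6-2 share 246 bases with Inpp5a, a phosphatase gene on the opposite strand, and whether counting used strand is not given in the sources used here. Inpp5a itself stood at 66.1 and 55.7 CPM in controls, against 67.0 and 65.6 CPM with Dox (log2 fold change 0.12, adjusted p = 0.861 in edgeR). The other tested genes among the 3 nearest on each side of Nkx6-2, Lrrc27, Pwwp2b, Kndc1 and Utf1, had log2 fold changes between -0.13 and 0.04, and none was called.

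The windows upstream of Nkx6-2, of its paralogue Nkx6-1 and of Dbx1 and Dbx2 are shown as examples of the differing responses: Nkx6-2 rose, Nkx6-1 had no detectable change, and both Dbx genes stood lower in both Dox libraries. Each holds the 250 bases before the RefSeq start in GRCm38.p6, a later build than the mm9 of the deposited counts, printed 5′ to 3′ on the gene's strand, with every match to the homeodomain core TAAT on either strand in capitals.
Nkx6-2, chr7:139582798-139583047, minus strand: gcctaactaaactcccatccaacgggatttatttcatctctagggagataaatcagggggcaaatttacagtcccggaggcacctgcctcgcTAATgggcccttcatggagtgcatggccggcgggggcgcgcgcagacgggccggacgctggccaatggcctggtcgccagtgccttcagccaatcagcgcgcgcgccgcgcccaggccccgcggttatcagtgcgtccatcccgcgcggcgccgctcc
Nkx6-1, chr5:101664712-101664961, minus strand: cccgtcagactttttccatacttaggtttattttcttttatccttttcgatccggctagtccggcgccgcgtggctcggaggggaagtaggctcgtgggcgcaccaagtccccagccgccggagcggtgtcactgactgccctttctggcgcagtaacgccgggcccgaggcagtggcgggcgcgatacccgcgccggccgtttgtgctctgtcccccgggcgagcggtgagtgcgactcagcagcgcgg
Dbx1, chr7:49636836-49637085, minus strand: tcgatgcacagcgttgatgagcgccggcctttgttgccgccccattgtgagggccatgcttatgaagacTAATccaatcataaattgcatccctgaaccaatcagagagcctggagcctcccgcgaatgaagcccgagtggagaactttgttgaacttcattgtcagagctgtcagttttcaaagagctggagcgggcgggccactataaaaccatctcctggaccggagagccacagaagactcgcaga
Dbx2, chr15:95654772-95655021, minus strand: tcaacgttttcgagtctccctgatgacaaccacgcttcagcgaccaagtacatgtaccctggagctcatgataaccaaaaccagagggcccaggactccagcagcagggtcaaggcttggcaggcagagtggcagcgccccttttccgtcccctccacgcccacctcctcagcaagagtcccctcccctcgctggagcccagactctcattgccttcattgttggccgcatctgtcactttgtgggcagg
Nkx6-2 had 1 match, 158 bases before the start, Dbx1 had 1 match, 181 bases before it, and Nkx6-1 and Dbx2 had 0. RefSeq gave 10 such windows for 9 members (2 for Pax6 and none for Irx5), and TAAT was found in 6 of these 10, against 54.9% of all 32851 windows of this length. The double core TAATTA, a palindrome that contains TAAT on each strand, was in 0 of the 10 windows and in 4.84% of all. The Gli core GACCACCCA, searched on both strands, was in 0 of the 10 and in 0.225% of all. At 65.2% G and C, the Nkx6-2 and Nkx6-1 windows were richer in these bases than the median window (52.4%). A match is a description of letters, and its absence says only that these letters are not in this window.

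Nkx6-1, which marks p3, pMN and p2 progenitors and early motor neurons, had no detectable change. It stood at 1.17 and 1.10 CPM in controls, against 1.44 and 1.06 CPM with Dox, and the groups overlapped. The log2 fold change was 0.13 (SE 0.33, adjusted p = 0.971 in edgeR), with a 95% interval of 0.621-fold to 1.92-fold. Changes within that interval, in either direction, are not excluded, and the counts were only 27 to 58 a library. The 95% intervals of the Nkx6 paralogues did not overlap. Per kb of exon, Nkx6-2 was 3.60 and 5.49 times as abundant as Nkx6-1 without Dox and 29.5 and 50.5 times as abundant with Dox. Nkx6-2 made up 78.3% and 84.6% of the summed Nkx6 level per kb without Dox and 96.7% and 98.1% with Dox.

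The other ventral determinants, Olig2 and Nkx2-2, were scarce in every library. Olig2, which specifies pMN progenitors and later oligodendrocytes, stood at 1.39 and 1.67 CPM in controls, against 1.93 and 1.78 CPM with Dox. Both Dox libraries were above both others, by less than the test could call (log2 change 0.27 with SE 0.29, adjusted p = 0.866 in edgeR, 95% interval 0.742-fold to 1.96-fold). Its close relative and neighbour Olig1 lay between 0.256 and 0.481 CPM in all 4 libraries. Nkx2-2, the p3 determinant, had 8 and 1 counts without Dox and 11 and 2 counts with Dox, or 0.294 and 0.0408 CPM against 0.294 and 0.0366 CPM. Replicate 1 was the higher library in each group, and the groups overlapped. The ratio of summed counts was 0.812, with an exact 95% counting interval of 0.321 to 2.15. Summed per kb, Nkx2-2, Olig2 and Nkx6-1 came to 1.04 and 1.03 without Dox and to 1.34 and 1.05 with Dox, against 116 and 102, then 68.7 and 52.5, for Irx3, Irx5, Pax6, Dbx1 and Dbx2 together.

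The intermediate factors stood lower with Dox, though none passed the test. Across the genome 0.056% of genes were called lower by edgeR, and 0 of the 9 tested members were. At an unadjusted p under 0.05, 5 members were lower (Irx3, Irx5, Pax6, Dbx1 and Dbx2) and 1 was higher, against 4.02% and 6.26% of all genes. Those same 5 genes had both Dox libraries below both libraries without Dox, as did 19.9% of all genes, while Nkx6-2 and Olig2 had both above, as did 18.9%. The median log2 fold change of the tested members was -0.71, against -0.014 over all genes tested. These members were chosen with earlier results known, so the counts describe them and are no test of the list.

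Dbx2, a homeodomain factor of p1, p0 and adjacent dorsal progenitors, was furthest below. It stood at 6.46 and 6.41 CPM in controls, against 2.54 and 1.94 CPM with Dox, with no overlap. The log2 fold change was -1.53 (SE 0.24, adjusted p = 0.0544 in edgeR), or 34.7% of the level without Dox, and Dbx2 ranked 49th from the lowest fold change. Dbx1, which specifies p0 progenitors, stood at 49.5 and 43.9 CPM in controls, against 25.3 and 18.5 CPM with Dox, also with no overlap. Its log2 fold change was -1.09 (SE 0.18, adjusted p = 0.0641 in edgeR), or 46.9% of the level without Dox. Every part of either gene was lower with Dox, by ratios of 0.266 to 0.380 in Dbx2 and 0.421 to 0.501 in Dbx1.

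Pax6, a broad regulator of neural progenitors, had the highest level per kb of all members in each library. It stood at 149 and 134 CPM in controls, against 87.2 and 67.4 CPM with Dox, and the groups did not overlap. The log2 fold change was -0.87 (SE 0.16, adjusted p = 0.0746 in edgeR), or 54.7% of the level without Dox. All 13 parts of Pax6 were lower with Dox, with ratios between 0.494 and 0.623, so the difference was spread along the transcript. Elp4, which lies next to Pax6, had a log2 fold change of -0.34 (adjusted p = 0.55).

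Irx3 and Irx5, Iroquois homeodomain factors that lie in 1 cluster and are found in progenitors dorsal to pMN, differed alike. Irx3 stood at 70.5 and 59.7 CPM in controls, against 48.1 and 35.2 CPM with Dox (log2 change -0.65 with SE 0.18, adjusted p = 0.251 in edgeR). Irx5 stood at 32.0 and 27.2 CPM in controls, against 19.6 and 16.6 CPM with Dox (-0.71, SE 0.16, adjusted p = 0.147 in edgeR). Neither gene's groups overlapped. The ratio of Irx3 to Irx5 per kb was 1.96 in each library without Dox and 2.19 and 1.88 with Dox, so the balance of the pair moved by less than its spread with Dox. Irx6, the remaining Iroquois gene of the cluster, stayed between 0.512 and 0.734 CPM. Crnde, a noncoding RNA gene next to Irx5, was at 7.74 and 6.73 CPM in controls, against 4.52 and 4.96 CPM with Dox (-0.61, adjusted p = 0.35). Fto, on the other side of Irx3, had a log2 fold change of -0.06.

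Which intermediate factors passed differed with the library left out and with the tool. A fit with a library left out compared 1 library with 2, so its spread came from 1 group only. With Dox replicate 1 left out, the calls lower were Irx3 (adjusted p = 0.0343), Pax6 (0.0055), Dbx1 (0.00117) and Dbx2 (0.0118), all by edgeR. With no Dox replicate 2 left out they were Irx5 (0.046), Pax6 (0.0248), Dbx1 (0.0208) and Dbx2 (0.0406). These fits called 0.859% and 0.571% of all genes lower. No member was called lower without no Dox replicate 1 or without Dox replicate 2, where 0.163% and 0.153% of all genes were. DESeq2 called Irx5, Pax6, Dbx1 and Dbx2 lower, with 0.812% of all genes called lower by that tool. The fold changes of Irx3, Irx5, Pax6, Dbx1, Dbx2 and Pax7 were below 0 in all 71 values under other settings. These values come from 12 alternative fits of the same libraries.

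**Figure D2:**
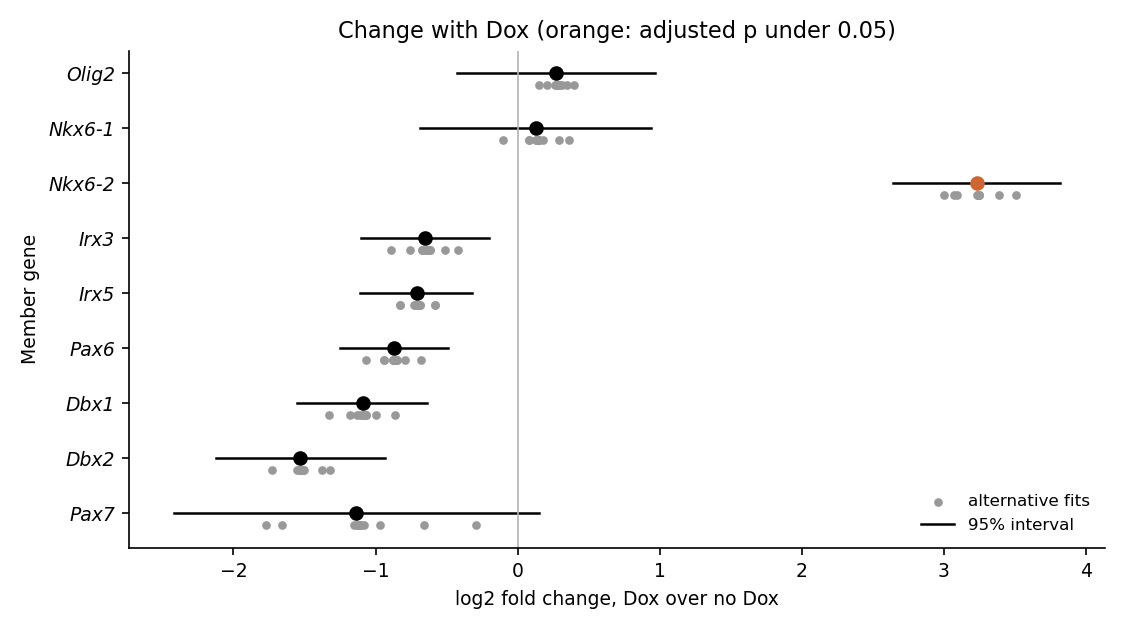
Log2 fold change with Dox of the 9 tested members (large points, orange where the adjusted p is under 0.05) with 95% intervals, and the values under up to 12 other settings below each (grey points). Nkx6-2 lies at 3.23, Olig2, Nkx6-1 and Pax7 have intervals across 0, and the members other than Nkx6-2, Olig2 and Nkx6-1 lie between -0.65 and -1.53.

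Pax7, which marks dorsal progenitors and also neural crest and muscle precursors, varied widely between replicates. It stood at 22.9 and 8.94 CPM in controls, against 9.95 and 4.67 CPM with Dox, so Dox replicate 1 lay above no Dox replicate 2. Replicate 1 was 2.57 times replicate 2 without Dox and 2.13 times with Dox. The log2 fold change was -1.14 (SE 0.52, adjusted p = 0.562 in edgeR), and leaving out no Dox replicate 1 or 2 gave -0.29 or -1.66. Its last exon held 60.2% to 77.3% of its counts. For the myogenic source, Myf5 was at 0 in all libraries and Myod1 at or under 0.0816 CPM. Myog, a factor of differentiating muscle, had 0 counts in controls and was at 0.722 and 1.15 CPM with Dox, not called by edgeR but higher by DESeq2 and limma-voom. Meox2, a somite gene, was at 0 and 0.163 CPM in controls, against 1.04 and 2.76 CPM with Dox (adjusted p = 0.126 in edgeR, called higher by DESeq2), and Meox1 at 1.17 and 2.61 CPM, against 2.76 and 5.44 CPM (adjusted p = 0.52). Of the 6 genes of the myogenic list 4 were tested and 0 called by edgeR, with 2 higher and 1 lower before adjustment at 0.05, and DESeq2 also called Pax3 lower. The part of myogenic cells in the Pax7 values was not tested. The list of 6 neural crest genes shares Foxd3 with the list of daughter neurons and Sox10 with that of oligodendrocytes. It summed to 134 and 121 CPM in controls, against 83.6 and 75.1 CPM with Dox. Tfap2b was the largest part of this sum, at 85.7 and 67.1 CPM in controls, against 40.4 and 31.7 CPM with Dox. Of 5 tested genes 0 were called by edgeR and 1 (Tfap2b) was called lower by DESeq2. At an unadjusted p under 0.05, 2 were lower (Tfap2b and Foxd3). Tfap2a, Snai2 and Ets1 had log2 fold changes of -0.26, -0.31 and -0.18. The part of neural crest cells in the Pax7 values was not tested.

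**Figure D3:**
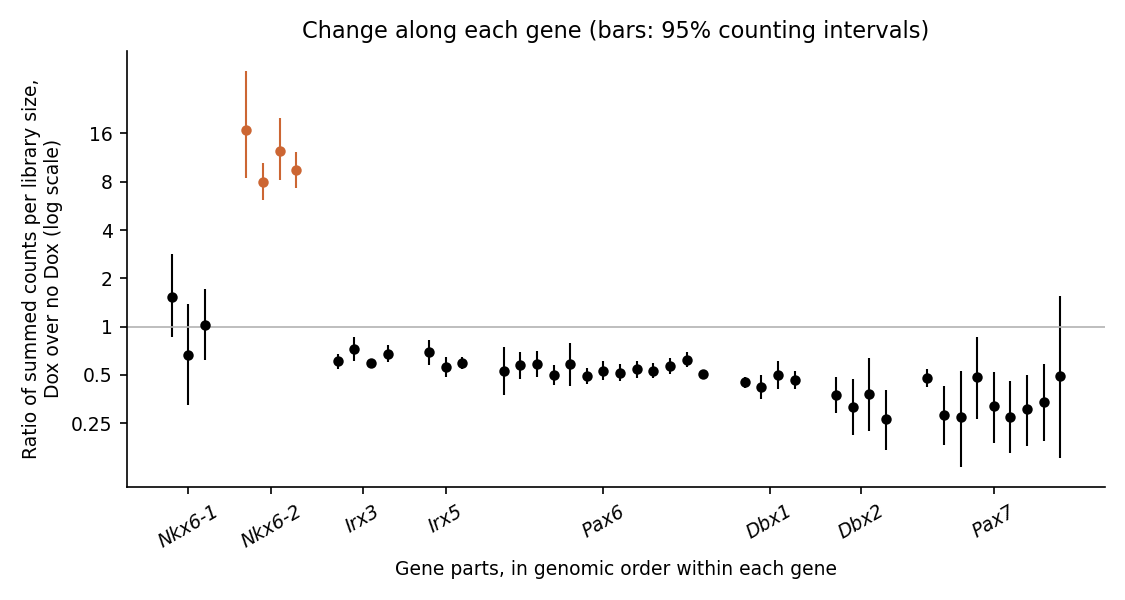
Ratio of summed counts, Dox over no Dox and scaled for library size, for gene parts with at least 8 counts without Dox. Olig2 and Nkx2-2 are not shown. Ratios are on a log axis, with exact 95% counting intervals and parts in genomic order within a gene. The 4 counted parts of Nkx6-2 lie between 7.98 and 16.8, and all parts of Irx3, Irx5, Pax6, Dbx1, Dbx2 and Pax7 lie under 1.

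Ratios of opposing factors within each library remove the library's scaling. Olig2 per kb was 0.0215 and 0.0304 times Irx3 without Dox and 0.0435 and 0.0548 times Irx3 with Dox, a difference of 0.93 in mean log2 ratio, with Irx3 far above Olig2 in each library. Nkx6-1 was 0.200 and 0.190 times Dbx2 without Dox and 0.627 and 0.603 times Dbx2 with Dox. The ratio of Nkx6-2 to Dbx1 crossed from 0.0569 and 0.0917 without Dox to 1.12 and 1.93 with Dox. That of Nkx6-2 to Dbx2 went from 0.722 and 1.04 to 18.5 and 30.5. In these 4 ratios the groups did not overlap, which in part restates the differences of the single genes. A comparison of 2 against 2 libraries cannot give a two-sided exact permutation p under 0.333, so no p is given. Separation was not particular to opposing factors. Dbx1 over Dbx2 was 12.7 and 11.3 without Dox and 16.5 and 15.8 with Dox, and Nkx6-2 over Nkx6-1 did not overlap either. Pax6 over Pax7 overlapped between the groups, at 13.2 and 30.6 without Dox and 17.9 and 29.5 with Dox, as did Irx3 over Irx5.

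**Figure D4:**
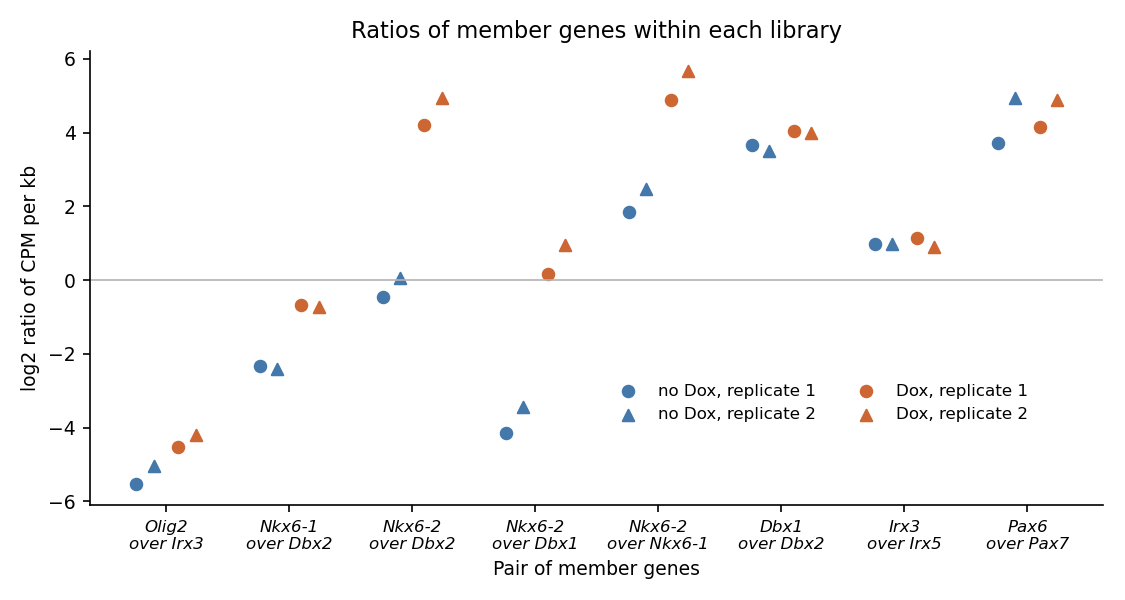
Log2 ratio of CPM per kb between pairs of members in each library, with circles and triangles for replicates 1 and 2. Nkx6-2 over Dbx1 moved from -4.14 and -3.45 without Dox to 0.16 and 0.95 with Dox, while Irx3 over Irx5 stayed between 0.91 and 1.13.

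The order of the members per kb with Dox was led by Pax6 at a mean of 26.9 CPM per kb, then Nkx6-2 at 15.3, Irx3 at 15.1, Dbx1 at 10.5 and Irx5 at 7.39. Nkx6-2 had been 7th without Dox and was 2nd with it, where it overlapped Irx3. Pax7 (1.25), Olig2 (0.731), Dbx2 (0.648), Nkx6-1 (0.399) and Nkx2-2 (0.0657) followed, and Olig2 overlapped Dbx2. Of the summed level of all members per kb, Nkx6-2 held 1.10% and 1.80% without Dox and 15.9% and 23.9% with Dox. The share of Pax6 was 42.3% and 43.7% without Dox and 35.6% and 32.9% with Dox.

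Other genes of the dorsoventral system were read from lists fixed for this work. Of 16 dorsal progenitor genes 14 were tested and 0 were called by edgeR, with 7 lower and 1 higher at an unadjusted p under 0.05 and a median log2 fold change of -0.98. DESeq2 called 5 lower (Pax3, Neurog1, Neurog2, Msx3 and Ptf1a) and Msx1 higher, and limma-voom called 0. Pax3, a dorsal paired-box factor related to Pax7, stood at 54.3 and 36.2 CPM in controls, against 21.6 and 12.0 CPM with Dox (adjusted p = 0.144 in edgeR). Zic1 (log2 fold change -0.38) had overlapping groups. The following genes were singled out after their values were seen. Olig3, a factor of dorsal progenitors, stood at 7.63 and 3.26 CPM in controls, against 0.776 and 0.275 CPM with Dox (log2 change -3.43 with SE 0.62, adjusted p = 0.0753 in edgeR). Ptf1a, which directs dorsal inhibitory neurons, had a log2 fold change of -3.73 (adjusted p = 0.0706). Msx1, a roof plate and dorsal midline factor, was higher in both Dox libraries, at 44.5 and 23.3 CPM against 13.9 and 12.3 CPM (adjusted p = 0.149). Olig3 was also 2.34 and 2.83 times higher in replicate 1 than in replicate 2, close to the ratios of Pax7.

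On the ventral side, 6 of 8 floor plate genes were tested and 0 were called by edgeR, with 1 lower at an unadjusted p under 0.05 and a median of -0.54, while DESeq2 called 1 lower (Ntn1). Foxa2, which is also a gene of endoderm, stood at 47.8 and 67.2 CPM in controls, against 48.0 and 70.2 CPM with Dox. Shh itself was at 1.69 and 2.04 CPM in controls, against 1.07 and 1.56 CPM with Dox, and the floor plate factor Ferd3l was under 0.2 CPM in all libraries. Of 12 relatives of the ventral members 10 were tested and 0 called by edgeR (median -0.37, with 4 lower at an unadjusted p under 0.05), and DESeq2 called 1 lower (Olig3). Foxn4, a p2 factor, had a log2 change of -1.81 (SE 0.75; adjusted p = 0.495), and Prdm12, a p1 factor, one of -1.22 (SE 0.35, adjusted p = 0.256). Both were named after their values were seen. Of 10 Hedgehog pathway genes all were tested, 0 were called by edgeR and the median was -0.03. Before adjustment 2 higher and 2 lower passed 0.05, and the DESeq2 calls included Gli1 (higher) and Boc (lower). Ptch1, a receptor and target, stood at 178 and 85.4 CPM in controls, against 166 and 111 CPM with Dox, with overlap. Gli1, a transcriptional target picked after its values were seen, stood at 46.5 and 62.1 CPM in controls, against 88.6 and 82.6 CPM with Dox (log2 fold change 0.66, adjusted p = 0.185).

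Among markers of the neurons that each domain makes, the motor neuron gene Mnx1 was the one edgeR called. Mnx1, at 2.31 and 0.938 CPM in controls, rose to 48.5 and 43.8 CPM (log2 change 4.81 with SE 0.36, adjusted p = 0.00393 in edgeR), the only edgeR call among 9 tested of 15 genes of daughter neurons. At an unadjusted p under 0.05 the list had 2 higher and 4 lower, and DESeq2 called Mnx1 higher and Pax2 lower. Pax2, of several interneuron types, stood at 12.7 and 9.51 CPM in controls, against 5.88 and 2.71 CPM with Dox, with no overlap (log2 change -1.39 with SE 0.39, adjusted p = 0.244 in edgeR). Gata3, of V2b interneurons, lay between 5.98 and 7.96 CPM in all libraries. Pax2, Gata3 and the genes that follow were singled out after their values were seen. Evx1, of the V0 interneurons that Dbx1 progenitors make, was at or under 0.294 CPM in each library. En1, of V1 interneurons, stood at 1.80 and 2.00 CPM in controls, against 1.66 and 1.48 CPM with Dox. Sim1, of V3 interneurons, stood at 1.25 and 0.898 CPM in controls, against 0.642 and 0.439 CPM with Dox (adjusted p = 0.468).

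Genes shared by neural progenitors of all domains also had negative fold changes. All 8 pan-progenitor genes had fold changes under 0 (median -0.65), 4 were lower at an unadjusted p under 0.05 and 0 were called by edgeR. DESeq2 called Hes5 and Fabp7 lower. Their summed level was 1430 and 1170 CPM in controls, against 1220 and 926 CPM with Dox. In this sum Dox replicate 1 lay above no Dox replicate 2. Vim was its largest part, at 773 and 682 CPM in controls, against 751 and 633 CPM with Dox. In 6 of the 8 genes (Sox1, Sox2, Sox3, Hes5, Nes and Fabp7) both Dox libraries lay below both controls, as in 19.9% of all genes tested. Nes, an intermediate filament of progenitors, stood at 219 and 143 CPM in controls, against 139 and 91.3 CPM with Dox, and Vim and Notch1 overlapped between groups. Of 8 proliferation genes 6 were under 0 and 2 above (median -0.30, with 0 called by edgeR or DESeq2 and 1 lower at an unadjusted p under 0.05), and their sum was 3900 and 3190 CPM in controls, against 3460 and 2880 CPM with Dox. The part of progenitor number or of cycling in the lower levels of Pax6, Irx3, Irx5, Dbx1 and Dbx2 was not tested.

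**Figure D5:**
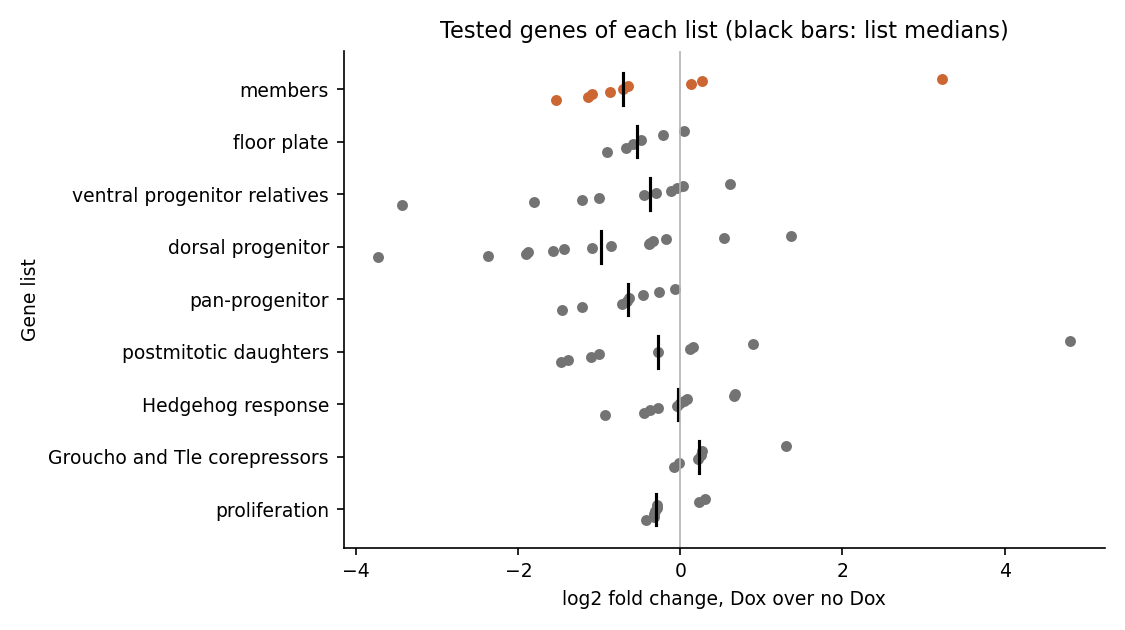
Log2 fold change with Dox of each tested gene in the members and 8 related lists, with list medians as black bars. The members have a median of -0.71 with Nkx6-2 at 3.23, the dorsal progenitor list has a median of -0.98, and Mnx1 at 4.81 stands apart among daughter neuron genes.

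Tissues other than the spinal cord also use these factors, and their markers were read in the same libraries. Over 7 such lists with 47 genes, 32 were tested and 1 was called by edgeR. For oligodendrocytes, which carry Nkx6-2, Olig2 and Nkx2-2, Sox10 was at or under 0.160 CPM and Mag at or under 0.147 CPM, 0 of 4 tested genes were called by edgeR or DESeq2 and 0 had an unadjusted p under 0.05, and the sum of 506 and 465 CPM in controls, against 428 and 430 CPM with Dox came mostly from Pdgfra. For pancreas, which carries Nkx6-1, Nkx2-2 and Pax6, Ins1, Ins2 and Gcg were at 0 in every library and Pdx1 at or under 0.0267 CPM, while the endoderm gene Sox17 stood at 92.7 and 109 CPM in controls, against 86.8 and 86.0 CPM with Dox. For eye and forebrain, which carry Pax6, Six6 and Rax were under 0.2 CPM, but other genes of the list were measured. Emx2 stood at 4.70 and 6.28 CPM in controls, against 2.30 and 2.95 CPM with Dox. Lhx2 stood at 3.63 and 3.18 CPM, against 2.86 and 4.17 CPM, and Vax2 at 2.28 and 1.84 CPM, against 2.97 and 1.99 CPM. Vax1, picked after its values were seen, stood at 0.294 and 0.490 CPM, against 1.34 and 1.76 CPM with Dox. In this list 0 of 6 tested genes were called by edgeR or DESeq2, with 1 higher and 1 lower at an unadjusted p under 0.05. The part of eye or forebrain cells in the Pax6 levels was not tested. The gene called by edgeR was Prrx1, of limb and other mesenchyme, at 2.61 and 3.63 CPM in controls, which rose to 35.3 and 25.1 CPM (log2 change 3.28 with SE 0.26, adjusted p = 0.0045 in edgeR). In the same list of mesoderm DESeq2 also called Twist1 higher, at 11.7 and 16.6 CPM in controls, against 24.4 and 23.3 CPM with Dox (adjusted p = 0.215 in edgeR). The part of mesodermal cells in the Irx3 and Irx5 levels was not tested.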

How the data were processed

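TruSeq libraries were prepared, per the labels' protocols, and the submitters' processing notes name TopHat and mm9. The authors deposited whole-number counts for 208825 parts of genes. The sources used here do not give the counting tool, its annotation or its use of strand. Rows that name no gene stayed out: reads outside genes were 13.6% to 15.8% of counts and ambiguous reads 0.411% to 0.521%.

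Parts were summed to 21822 gene units and named from RefSeq (GRCm38.p6) and GENCODE M21, which matched 97.1% of 27601 identifiers. GENCODE gave exon lengths. Numbering of parts followed the genome: over 3454 minus-strand genes, counts followed exon length in genomic order (median rank correlation 0.582) and not in transcript order (-0.108).

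The test was edgeR 4.0.16 under R 4.3.3 (quasi-likelihood, robust, TMM, default low-count filter, Benjamini-Hochberg). CPM are scaled by TMM. The fit was tested on simulated data for this comparison (14152 genes run). In these data 81% of 100 true 2-fold changes and 100% of 100 true 4-fold changes were called, beside 22 false calls. Recovery was not split by count level, so it gives no measure for members with few counts. In the measured libraries Dbx1 (log2 fold change -1.09) and Dbx2 (-1.53) were estimated at more than 2-fold lower and were not called. Intervals of fold changes use the fit's own degrees of freedom.

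The members, lists, test and 12 alternatives (among them DESeq2 1.42.0 and limma-voom 3.58.1) were chosen with earlier results of these data known. The members, Isl1 and Lhx3 are named, and per list up to 3 called genes by smallest adjusted p or, with no call, the 3 with the largest mean CPM. Genes named outside this rule are neighbours of members, defining markers or genes singled out after their values were seen. Some genes of the lists are not reported here.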

Additional observations from a re-analysis of the deposited data

How the results depend on the processing

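The rise of Nkx6-2 was called under all 12 alternatives (log2 fold change 3.00 to 3.51), and 1 member was called higher in each. The number called lower, 0 in the reported fit, was 1 with library totals as the only scaling (Dbx2), 1 with limma-voom (Dbx2), 1 with the largest part as the count (Pax6), 3 without a low-count filter and 4 with DESeq2. Leaving out a library gave 0 to 4. The cause of these differences was not tested. With the replicate number as a block 6 were lower (Irx3, Irx5, Pax6, Dbx1, Dbx2 and Pax7), while 7.33% of all genes were called higher and 6.08% lower. Deviations of same-numbered libraries from their group means correlated at 0.521, but the labels do not say that a number marks shared material. Over all genes, 175 higher and 8 lower became 403 and 116 with DESeq2, 1047 and 869 with the block, 295 and 46 without a filter, 203 and 16 with library totals, 104 and 4 with a mean of at least 5 CPM, 168 and 14 with the largest part, and 276 to 283 and 22 to 124 with a library left out. The log2 fold change of Nkx6-1 was -0.10 without Dox replicate 1 and up to 0.36 with another library left out. The counts of Nkx2-2, Nkx6-1 and Olig2 limit what could be detected for them.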

Other observations

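The genes of the second Iroquois cluster differed in direction among themselves. Irx1 stood at 9.21 and 6.53 CPM in controls, against 14.8 and 9.37 CPM with Dox (log2 change 0.61 with SE 0.29, adjusted p = 0.572 in edgeR), and Irx2 at 20.2 and 18.1 CPM against 19.5 and 19.5 CPM (0.03, SE 0.14). Irx4 was scarce, at 0.734 and 0.449 CPM against 0.535 and 0.439 CPM (-0.30, SE 0.44). None of these 3 was called by edgeR, and the difference between the clusters was not tested. Groucho corepressors of the Tle family, through which several patterning factors repress, were all tested, and 0 of 6 were called by edgeR (median 0.24, with 1 higher at an unadjusted p under 0.05). Tle3 had the highest CPM, not corrected for length, at 227 and 170 CPM in controls, against 214 and 178 CPM with Dox. Tle2, singled out after its values were seen, stood at 4.11 and 6.00 CPM in controls, against 10.5 and 14.3 CPM with Dox (log2 change 1.30 with SE 0.27, adjusted p = 0.115), and DESeq2 called it higher.

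Among 5 genes of the midbrain and hindbrain border, 0 of 4 tested were called by edgeR, with 1 higher and 1 lower at an unadjusted p under 0.05. Wnt1, which is also a roof plate gene, stood at 38.8 and 26.6 CPM in controls, against 12.6 and 5.38 CPM with Dox (log2 change -1.87 with SE 0.41, adjusted p = 0.137 in edgeR), and DESeq2 called it lower. Otx2, of forebrain and midbrain, was at or under 0.110 CPM in each library. Among the 3 nearest measured genes on each side of the 10 members, 44 that are no member were tested, 0 were called by edgeR or DESeq2, 1 higher and 2 lower passed 0.05 in edgeR before adjustment, and their log2 fold changes lay between -0.61 and 0.68.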
